A study of Mus musculus with 7 samples.

Results

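Solute carriers, the membrane proteins that move ions, nutrients and metabolites across cell membranes without burning ATP themselves, were examined in the mouse colon after repeated TNBS enemas. The members were all genes whose symbol in the platform annotation begins with Slc, a family number and an a-number, or with Slco. This gave 145 genes, measured by 178 probe sets, among the 8251 genes of the array that had a probe set with a single symbol. Of the 145, 66 had a signal of at least 100 in at least 1 RNA pool and were analysed with the 4316 genes that met that minimum. The remaining 79 did not meet it, and 47 of them read under 50 on every array. The symbol rule also took in 3 genes that encode scaffolds or adaptors rather than carriers (Slc9a3r1, Slc9a3r2 and Slc4a1ap), of which Slc9a3r1 met the minimum.

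In the colon, carriers of the apical and basolateral membranes of the surface cells take up salt, water, short-chain fatty acids and vitamins and release bicarbonate. Carriers for phosphate, sulphate, metals, amino acids and sugars serve the cells' own metabolism, and the mitochondrial carriers exchange metabolites with the cytosol. Loss of salt and water absorption is a recognised feature of colitis.

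Per the labels, the animals were female CD-1 outbred mice, 10 to 12 weeks old at the start, and colon was taken 4 ± 0.5 cm from the anus. TNBS, a compound that binds tissue proteins and makes them targets of the immune system, was dissolved in ethanol and given as 6 enemas, while control mice received 6 enemas of saline. Pools of TNBS colon came from 6 mice at 3 days (week 6), 4 mice at 2 weeks (week 8), 5 mice at 4 weeks (week 10) and 4 mice at 6 weeks (week 12) after the enemas. A saline pool of 5 mice matched week 6 and was hybridised on 2 arrays, and a later saline pool of 4 mice (2 from week 8 and 2 from week 10) served for weeks 8, 10 and 12. No group received ethanol alone, week 12 had no saline mice of its own age, and each group was 1 pool of outbred mice. The matched comparisons therefore had no test, and weeks 8, 10 and 12 share their control. Because whole tissue was measured, fewer cells of a type and less RNA per cell cannot be told apart.

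Median signals lay between 51.7 and 61.1 on the 7 arrays, and 45.4% to 49.2% of probe sets read under 50, the level at which values were floored before taking log2. The 3' to 5' signal ratio of the actin control, which reads how complete the labelled transcripts were, lay at 1.14 to 1.24 for the 3 arrays of week 6 and at 0.798 to 0.818 for the 4 later arrays. The ratio of the Gapdh control lay at 0.912 to 0.942 for week 6 and at 0.869 to 1.00 for the later arrays, with no such split. The actin ratio moved with the control set, and its part in the carrier values was not tested. The measure of technical error was the pair of arrays of the week 6 saline pool. Between them the log2 values of the 66 carriers differed with an SD of 0.29 and at most by 0.73 (Slc39a1). This repeat covers labelling and hybridisation of 1 RNA pool and not the spread between mice.

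At the threshold of 2-fold, 7 carriers differed from saline in a matched comparison. At week 6 the phosphate carrier gene Slc20a1 was 3.06-fold lower and the haem carrier gene Slc48a1 was 2.04-fold lower. At week 8 the sulphate carrier gene Slc26a2 was 3.00-fold lower, the phosphate carrier gene Slc34a2 was 2.88-fold lower, the glucose carrier gene Slc2a8 was 2.10-fold lower and the zinc carrier gene Slc30a4 was 2.32-fold higher. None differed 2-fold at week 10, and at week 12 the folate carrier gene Slc46a1 was at least 2.15-fold higher. Promoter windows are shown for 3 of the 7, the pair of phosphate carrier genes, whose low points fell at different weeks, and the only carrier gene 2-fold higher at week 8. Each is the 250 bases before the gene's start in RefSeq (GRCm38.p6), read 5′ to 3′ on the gene's strand, with matches to the searched motifs in capitals.
Slc20a1 promoter, chr2:129198523-129198772, plus strand: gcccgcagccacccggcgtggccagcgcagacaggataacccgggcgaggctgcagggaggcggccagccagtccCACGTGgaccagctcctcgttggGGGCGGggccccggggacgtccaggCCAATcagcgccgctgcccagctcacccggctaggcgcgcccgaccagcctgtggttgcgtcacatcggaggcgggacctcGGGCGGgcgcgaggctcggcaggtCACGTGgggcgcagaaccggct
Slc34a2 promoter, chr5:53049103-53049352, plus strand: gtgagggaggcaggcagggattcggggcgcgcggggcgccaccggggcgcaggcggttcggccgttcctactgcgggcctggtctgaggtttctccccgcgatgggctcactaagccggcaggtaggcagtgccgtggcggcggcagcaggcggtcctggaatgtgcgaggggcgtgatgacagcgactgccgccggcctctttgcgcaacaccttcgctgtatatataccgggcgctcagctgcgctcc
Slc30a4 promoter, chr2:122702664-122702913, minus strand: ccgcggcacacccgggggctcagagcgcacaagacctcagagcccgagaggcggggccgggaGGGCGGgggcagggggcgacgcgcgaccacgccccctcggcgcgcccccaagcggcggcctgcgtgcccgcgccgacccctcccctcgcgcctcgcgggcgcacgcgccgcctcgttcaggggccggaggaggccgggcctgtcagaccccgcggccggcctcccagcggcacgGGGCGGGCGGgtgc

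Both strands were searched for 5 motifs, a choice made after the sequences were seen. The letters of the E-box were CACGTG and those of the GC box were GGGCGG. The other motifs were CCAAT, the TATA box with the letters TATAAA, and the AP-1 site with the letters TGANTCA. The window of Slc20a1, for which the table lists 2 starts and the first was used, held 2 E-boxes, whose first bases lay at -175 and -22 from the start, with 2 GC boxes and 1 CCAAT. Among 32851 promoter windows of this length, 6.02% held an E-box and 0.429% held 2 or more. The Slc30a4 window held 3 GC boxes, of which the last pair overlap, and 16.7% of windows held 2 or more. No searched motif occurred in the Slc34a2 window, which says only that these letters are absent from these 250 bases. These matches are descriptions of sequence, with G and C making up 75.2% of the Slc20a1 window, 69.6% of the Slc34a2 window and 82.8% of the Slc30a4 window.

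**Figure D1:**
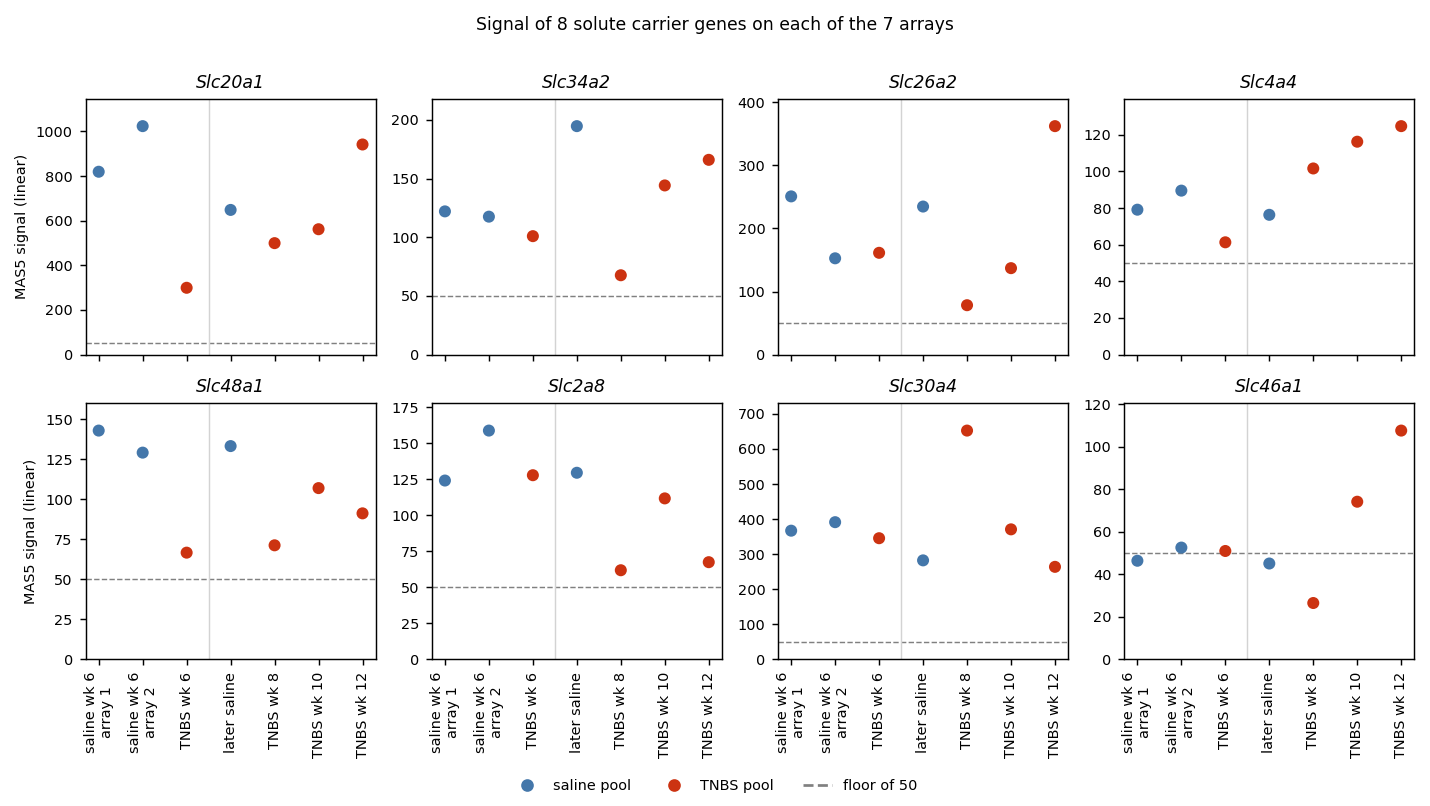
Signal (linear axis from 0, scaled by the authors to a target of 150) of 8 carriers on each of the 7 arrays, with 1 point an array, blue for saline and red for TNBS pools, and a dashed line at the floor of 50. Slc20a1 has its lowest point, 299.4, in the week 6 TNBS pool, and Slc26a2 has its lowest, 78.3, in the week 8 TNBS pool.

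Across the 66 carriers, 49 (74.2%) read below saline at week 6, when 52.6% of all 4316 genes did. The counts below saline at the later weeks were 36 at week 8 (54.5% of carriers and 56.5% of all genes), 26 at week 10 (39.4% and 50.6%) and 30 at week 12 (45.5% and 49.6%). The median carrier differed from saline by log2 -0.19 at week 6, -0.04 at week 8, 0.06 at week 10 and 0.05 at week 12, against -0.02, -0.07, -0.00 and 0 for all genes. Scaling every array to a common median raised the typical gene's difference by 0.18 (week 8), 0.14 (week 10) and 0.06 (week 12). The carriers' median at week 8 then turned to 0.12. At week 6 the shift of the typical gene was -0.02, and 49 carriers were again below saline. With the later saline pool as the control of week 6 the number was 43 of 66, and leaving out either saline array gave 48 or 42. No test stands behind this count.

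All counts here are out of 66 carriers and stand beside the share of all genes. At weeks 6 and 8 the share of carriers at least 2-fold lower was above that of all genes. It rested on 2 and 3 carriers and was not tested. At week 6, 0 carriers were at least 2-fold higher (2.55% of all genes) and 2 were at least 2-fold lower (0.996% of all genes). At week 8, 1 was higher (1.53%) and 3 were lower (1.76%). Week 10 had 0 higher (0.834%) and 0 lower (0.649%), and week 12 had 1 higher (0.718%) and 0 lower (0.88%). As a background, 0 carriers differed 2-fold between both saline pools, where 1.81% of all genes did, and 0 between both week 6 saline arrays, where 0.718% did. With a bound set after the data were seen at 0.73 on the log2 scale, the widest difference between those arrays among carriers, 7 carriers lay beyond it at week 6 (7.58% of all genes), 7 at week 8 (9.62%), 5 at week 10 (6.02%) and 4 at week 12 (5.21%). Those lower than saline beyond the bound numbered 7 at week 6 (3.04% of all genes), 6 at week 8 (5.75%), 3 at week 10 (3.38%) and 3 at week 12 (2.8%). The 7 at week 6 were Slc20a1, Slc48a1, Slc6a4, Slc16a1, Slc8a1, Slc39a4 and Slc25a39, of which Slc6a4 and Slc16a1 met the signal minimum only through later TNBS pools. The 6 at week 8 were Slc26a2, Slc34a2, Slc2a8, Slc48a1, Slc5a6 and Slc12a4. Slc12a4 met the signal minimum only through the week 6 TNBS pool and the later saline pool, its own control here. Slc12a4 was also among those lower at weeks 10 and 12, as was Slc38a5, which passed through the same pools, at week 10. Those higher included Slc7a9 at week 10 and Slc46a1 at week 12, which passed only through TNBS pools. Part of these counts was thus built in by the signal minimum.

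**Figure D2:**
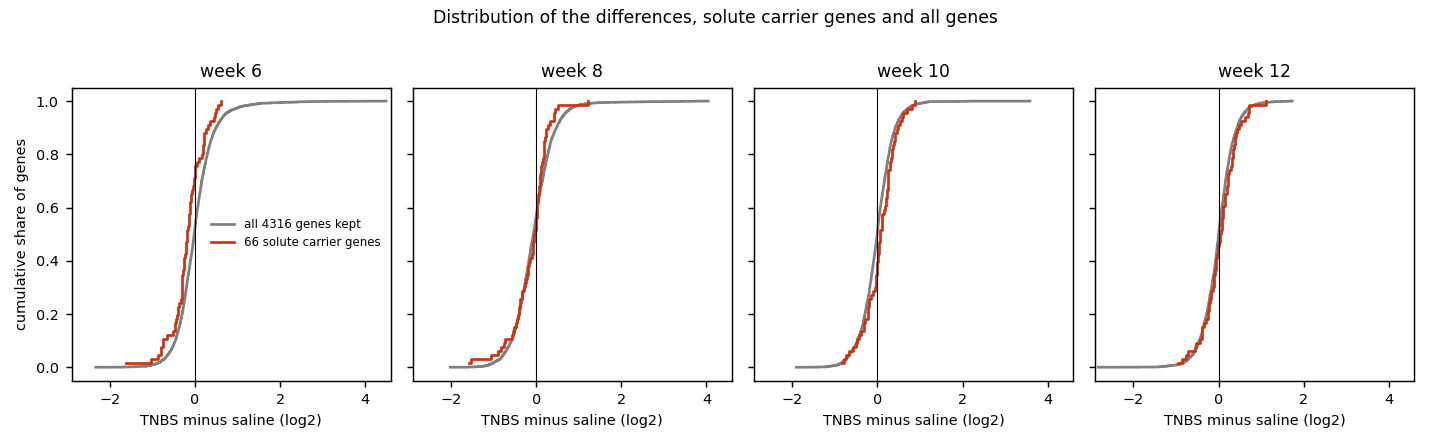
Cumulative share of genes (0 to 1) against the log2 difference between TNBS and matched saline pools at weeks 6, 8, 10 and 12, for the 66 carriers and for all 4316 genes. At week 6 the carrier curve reaches 74.2% just below 0 and the curve of all genes 52.6%.

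Phosphate carriers take inorganic phosphate into cells together with sodium. Slc20a1, the housekeeping member also known as the receptor of gibbon ape leukaemia virus, had signals of 819.2 and 1023.5 in week 6 saline and 299.4 in week 6 TNBS. In the later set it read 648.2 in saline and 499.4, 561.7 and 941.3 in the TNBS pools of weeks 8, 10 and 12. The week 6 TNBS value was thus the lowest of the 7 arrays, and the week 12 value lay above its own saline pool and between the earlier saline arrays. The differences were log2 -1.61, -0.38, -0.21 and 0.54 in order of week, and with the later saline pool as control the week 6 difference was -1.11.

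Slc34a2, a sodium-phosphate cotransporter of apical epithelial membranes, was lowest at week 8. Its signals were 122 and 117.5 in week 6 saline and 100.9 in week 6 TNBS. The later saline pool read 194.6, and the TNBS pools read 67.6 at week 8, 144.1 at week 10 and 165.9 at week 12. All 4 TNBS values lay below their own controls, and the week 8 value was the lowest of all. The later saline pool was itself 1.63-fold above the mean of the earlier one, and against that earlier pool the week 8 difference was log2 -0.82 in place of -1.53, while a floor of 100 gave -0.96. The other phosphate members, Slc17a1 and Slc34a1, read at most 37.2 on any array.

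Sulphate enters cells through Slc26a2, an anion exchanger that supplies the sulphation of proteoglycans and mucins. It read 250.7 and 152.6 on the repeated arrays of the week 6 saline pool, a 1.64-fold difference for the same RNA, and 161.3 in the week 6 TNBS pool. In the later set saline read 234.6, and TNBS pools read 78.3 at week 8, 137 at week 10 and 362 at week 12. The week 8 signal was the lowest and the week 12 signal the highest of the 7. The differences were log2 -0.28, -1.58, -0.78 and 0.63, so the week 12 excess of 1.54-fold was smaller than the difference between repeated arrays, while the week 8 difference was larger and was beyond 2-fold against the other saline pool too (-1.32). Slc26a1, the other member of this class, stayed at or under 6.5.

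Bicarbonate carriers of the Slc4 family set the acid-base balance of the epithelium. All 3 kept members were below saline at week 6 and above it at weeks 8 and 10, with 2 of 3 above it at week 12 (3 of 3 with equal array medians). Of all kept carriers 74.2% were below saline at week 6, and of all genes 52.6%. Slc4a4, the electrogenic sodium-bicarbonate cotransporter of the basolateral membrane, read 79.1 and 89.5 in week 6 saline and 61.3 in week 6 TNBS. Later it read 76.3 in saline and 101.6, 116.2 and 124.7 in the TNBS pools of weeks 8, 10 and 12. Slc4a4 was lower with TNBS in the first set and higher in the second, at log2 -0.46, 0.41, 0.61 and 0.71. Slc4a4 met the signal minimum only through its TNBS pools, so a difference was built into its inclusion.

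Slc4a2, a chloride-bicarbonate exchanger of the basolateral membrane, showed the same order of signs with a wider technical spread. Its signals were 580.7 and 372.9 in week 6 saline, 338.2 in week 6 TNBS and 376 in later saline. TNBS pools then read 425.8, 659.5 and 406.8, and the largest difference was log2 0.81 at week 10. The related exchanger gene Slc4a3 differed by -0.30, 0.45, 0.11 and -0.05, against 0.66 between its repeated saline arrays. For this pair of exchangers only the week 10 difference of Slc4a2, 1.75-fold, exceeded the difference between repeated arrays of its own probe set, 1.56-fold.

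Cation-chloride cotransporters move sodium, potassium and chloride together. Slc12a2, the basolateral sodium-potassium-chloride cotransporter that feeds chloride secretion, read 1404.3 and 1693 in week 6 saline and 2234.1 in week 6 TNBS. It read 1756.7 in later saline and 1842.9, 2432.7 and 2242.3 in the later TNBS pools. All 4 TNBS pools lay above their controls, by log2 0.53, 0.07, 0.47 and 0.35. The potassium-chloride cotransporter gene Slc12a4 read 80.4 and 94.2 in week 6 saline and 118.1 in TNBS, but 113.3 in later saline and 67.2, 67.7 and 62.8 in the later TNBS pools. It was thus above saline at week 6 by 0.44 and below it later by 0.75, 0.74 and 0.85 on the log2 scale. Slc12a4 met the signal minimum only through the week 6 TNBS and later saline pools, so part of this order was built into its inclusion. Slc12a7, of the same potassium-chloride group, was at -0.73 at week 8 and at -0.32, 0.15 and 0.14 in the other comparisons. The sodium-proton exchanger gene Slc9a8 differed by log2 -0.20, -0.38, 0.25 and 0.09, and the scaffold gene Slc9a3r1, whose protein anchors apical exchangers, differed by -0.42, 0.12, 0.24 and -0.30.

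Sugar carriers showed little difference at week 6, where the 5 kept members had a median of log2 -0.12. Slc2a8, an intracellular glucose carrier, read 124 and 158.7 in week 6 saline, 127.7 in week 6 TNBS and 129.4 in later saline. It then read 61.7 at week 8, 111.6 at week 10 and 67.3 at week 12, below the other arrays at weeks 8 and 12 (log2 -1.07 and -0.94). With equal array medians the week 8 difference was -0.89 and with a floor of 100 it was -0.37, both short of 2-fold, and the gene's other probe set read under 50 on every array. Slc5a1, the sodium-glucose cotransporter of apical membranes, read 195.4 and 197.5 in week 6 saline, 180.3 in week 6 TNBS, 181.8 in later saline and 195, 187.6 and 237.5 in later TNBS pools. Its highest value came at week 12, at log2 0.39. Slc2a1, the widespread glucose carrier, differed by 0.10, 0.08, -0.00 and -0.39, and Slc50a1, which carries sugars along their gradient, by 0.21, -0.02, -0.23 and -0.21.

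Amino acid carriers were mixed, with 6 of 11 below saline at weeks 6 and 8, 3 at week 10 and 5 at week 12. With equal array medians 6, 5, 2 and 2 of 11 were below saline in order of week, and the week 8 median of log2 -0.15 turned to 0.03. Slc7a9, the light chain of a cystine and basic amino acid exchanger, read 61.3 and 93 in week 6 saline and 115.5 in week 6 TNBS. It read 61.7 in later saline and 77, 113.9 and 100.8 in later TNBS pools. Each TNBS pool lay above its controls, by log2 0.61, 0.32, 0.88 and 0.71, against 0.60 between the repeated arrays, and the gene met the minimum only through TNBS pools. Slc38a5, a glutamine carrier, ran from 0.22 at week 6 to -0.33, -0.82 and -0.53 later. It met the minimum only through the week 6 TNBS pool (109.4) and later saline (103), so part of this order was built into its inclusion. Slc1a5, a sodium-dependent neutral amino acid carrier, was below saline in all 4 comparisons (-0.32, -0.57, -0.58 and -0.03), and Slc38a2, a stress-responsive amino acid carrier, was above it in all 4 (0.34, 0.51, 0.25 and 0.09). Slc3a2, the heavy chain shared by several exchangers, was -0.47 at week 6 and 0.01, 0.12 and 0.19 later. Its light chain partners Slc7a5 (-0.00, 0.27, 0.25 and -0.23) and Slc7a7 (0.30, -0.15, 0.34 and 0.23) did not share that order. The taurine carrier gene Slc6a6 was above saline in all 4 comparisons, by 0.22, 0.18, 0.42 and 0.33, where its repeated arrays differed by -0.32.

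**Figure D3:**
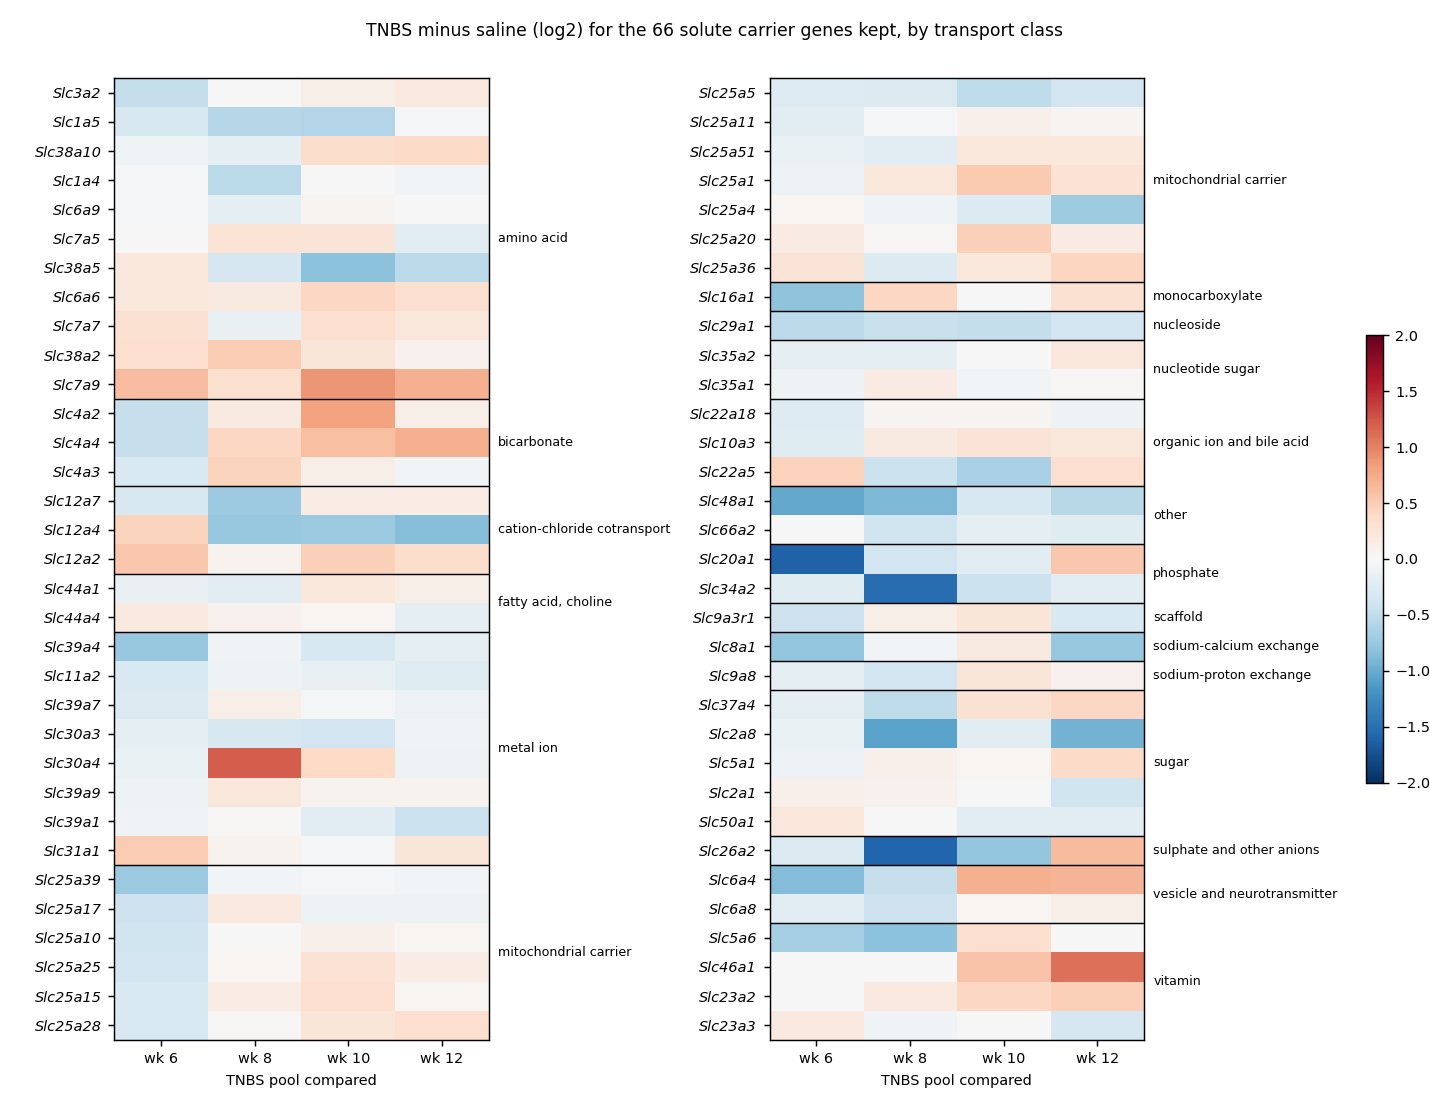
Heat map of the log2 difference between TNBS and matched saline pools (columns, weeks 6, 8, 10 and 12) for the 66 kept carriers (rows, by class), blue for lower and red for higher with TNBS. All 3 bicarbonate carriers are below 0 at week 6 and above 0 at weeks 8 and 10, and 10 of 13 mitochondrial carriers are below 0 at week 6. Of the 66 carriers 74.2% are below 0 at week 6, and of all genes 52.6%.

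Metal ion carriers were below saline in 7 of 8 cases at week 6, with a median of log2 -0.16, when 74.2% of all kept carriers and 52.6% of all genes were. Slc39a4, the apical zinc importer, read 1051.9 and 1028.1 on both saline arrays and 612.9 in the week 6 TNBS pool, 1.70-fold lower. Later it read 919.8 in saline and 877.2, 734 and 813.3 in TNBS pools, all below the control. A second Slc39a4 probe set, however, read 524.5 and 514.3 in week 6 saline and 512.7 in TNBS, so the 2 probe sets of this gene disagree at week 6. Slc30a4, which loads zinc into vesicles, read 366.7 and 391 in week 6 saline, 345.2 in week 6 TNBS and 281.9 in later saline. It read 652.6 at week 8, the highest of the 7, and 370.5 and 263.4 at weeks 10 and 12. Against the earlier saline pool the week 8 difference was log2 0.79 in place of 1.21, and its other probe set read under 50 on every array.

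The remaining metal carriers moved less. Slc31a1, a copper importer, was the exception at week 6 at log2 0.50 above saline, with 0.27 on its second probe set, and its repeated arrays differed by 0.33. Slc11a2, the proton-coupled iron importer, read 229.2 and 191.8 in week 6 saline and 169.5 in TNBS, then 167.7 in later saline and 156.6, 151.5 and 142.2. It was below saline in all 4 comparisons, by at most 1.24-fold, while its second probe set differed by log2 0.12, -0.95, 0.07 and 0.80. Slc30a3, a zinc carrier of vesicles, was below saline by 0.19, 0.33, 0.38 and 0.09 on the log2 scale.

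Mitochondrial carriers, the Slc25 family, were below saline in 10 of 13 cases at week 6 (median log2 -0.26), and in 7, 4 and 4 cases at weeks 8, 10 and 12. In order of week, 74.2%, 54.5%, 39.4% and 45.5% of all 66 carriers were below saline. The shares of all genes were 52.6%, 56.5%, 50.6% and 49.6%. Medians of the mitochondrial carriers at the later weeks were -0.01, 0.21 and 0.05, and with equal array medians 3, 2 and 3 were below saline there. Slc25a39, which is needed for mitochondrial glutathione, read 832.1 and 747.1 in week 6 saline and 470.4 in TNBS, then 632 in later saline and 609, 621.5 and 606.9. Its difference of log2 -0.75 at week 6 was followed by differences within 0.06 of 0. Slc25a1, the citrate carrier, went from -0.12 at week 6 to 0.23, 0.52 and 0.29. Its second probe set differed by -0.39, -0.06, -0.25 and 0.05, so the probe sets went opposite ways at weeks 8 and 10. Slc25a4, an ADP/ATP carrier abundant in muscle, read 454 in week 6 TNBS against 426.4 and 459, and 761.1 in later saline against 717.9, 627 and 463.8. Its week 12 value lay below the other arrays of the later set (-0.71 against saline) and near those of week 6. The later saline pool stood 1.72-fold above the earlier one. Slc25a5, the widespread ADP/ATP carrier, was below saline in all 4 comparisons (-0.26, -0.29, -0.51 and -0.39). The suffix of this probe set marks it as shared with similar sequences, so the signal may include other family members. Another Slc25a5 probe set differed by 0.13, -0.48, -1.42 and -0.05, above saline at week 6.

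Carriers of haem and vitamins held a 2-fold difference at week 6 and another at week 12. Slc48a1, which exports haem from lysosomes, read 143 and 129.2 in week 6 saline and 66.6 in week 6 TNBS. Later saline read 133.3, and TNBS pools read 71.2, 107 and 91.2. All 4 TNBS pools lay below all 3 saline arrays, of which 2 repeat 1 pool. How many of all genes show such an order was not counted. The differences from the matched controls were log2 -1.03, -0.90, -0.32 and -0.55 in order of week. The week 6 difference was -0.96 without the first saline array and -0.44 with a floor of 100, since the TNBS value lies between both floors. Slc46a1, the proton-coupled folate carrier, read 46.3 and 52.5 in week 6 saline, 50.9 in TNBS and 45 in later saline, then 26.4, 74.1 and 107.6. Only the week 12 TNBS pool read above 100, and through it alone the gene met the minimum. With a floor of 100 the week 12 difference was log2 0.11. Slc5a6, the carrier of biotin and pantothenate, was -0.67 at week 6 and -0.82 at week 8, then 0.31 and -0.01. Slc23a2, a vitamin C carrier, was 0.00 at week 6 and 0.20, 0.42 and 0.48 above saline later.

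Among single representatives of other classes, Slc16a1, the monocarboxylate carrier that takes up butyrate, read 77.5 and 98.7 in week 6 saline and a value at the floor of 50 in TNBS, 1.75-fold lower. Later it read 76.6 in saline and 102, 77.4 and 95 in TNBS pools, all above the control, and it met the minimum only through TNBS. Slc29a1, an equilibrative nucleoside carrier, read 156.3 and 154.9 in week 6 saline and 108.6 in TNBS, then 196.9 in later saline and 144.3, 141.3 and 150.5. Every TNBS pool lay below every saline array, and the differences from the matched controls were log2 -0.52, -0.45, -0.48 and -0.39. How many of all genes show such an order was not counted. A second Slc29a1 probe set differed by -0.12, 0, 0 and 0, since later saline and all TNBS pools read under the floor. There the week 12 pool read 44.4 against 44.1 in later saline, so that order was not shared. Slc6a4, the serotonin reuptake carrier of the epithelium, read 89.8 and 92.2 in week 6 saline and 40.9 in TNBS, at least 1.82-fold lower. It read 81.9 in later saline and 59.4, 133.5 and 131.5 in TNBS pools, through which alone it met the minimum. A second Slc6a4 probe set read 83.5 in later saline and 48.2 at week 10, so the probe sets went opposite ways at week 10.

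Slc8a1, the sodium-calcium exchanger of excitable cells, read 183.7 and 167.1 in week 6 saline and 101.3 in TNBS, then 243.2 in later saline and 234.4, 275.1 and 143.5. It was low at weeks 6 and 12 (log2 -0.79 and -0.76) and near saline between. The smooth muscle markers were below saline in 7 of 8 cases at week 6 (median -0.22) and in 8 of 8 at week 12 (median -0.36, and 7 of 8 with equal array medians), and their part in the Slc8a1 values was not tested. Slc22a5, the carnitine carrier, changed sign between weeks, at 0.46, -0.43, -0.66 and 0.33. The Golgi carriers of nucleotide sugars were nearly level, with Slc35a1 at -0.10, 0.16, -0.05 and 0.02 and Slc35a2 at -0.18, -0.19, -0.01 and 0.23. The choline carrier gene Slc44a1 differed by -0.15, -0.21, 0.21 and 0.11, and the creatine carrier gene Slc6a8 by -0.21, -0.41, 0.04 and 0.11. Slc22a18 and Slc10a3, of the organic ion and bile acid classes, stayed within 0.26 of saline in all 4 comparisons.

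The members that did not meet the signal minimum were spread over most classes. Of 17 organic ion and bile acid carriers 3 were kept, of 9 carriers of fatty acids, acetyl-CoA and choline 2 were kept, and of 8 vesicle and neurotransmitter carriers 2 were kept. The peptide carrier gene Slc15a2 read at most 21.5 on any array. Slc11a1, the metal carrier of phagosomes, read 58.3 in the week 6 TNBS pool and 10.2 to 25.9 on the other arrays, below the minimum in each case. Such readings lie near the lower end of the array's range and give no order among pools.

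A model over all pools, fitted with limma on all 4316 genes with the control set as a covariate, gave the tests. It called 0 carriers at an adjusted p of 0.05, as it called 0% of all genes, and the lowest adjusted p of a carrier was 0.887. At an unadjusted p under 0.05 it held 3 carriers of 66, against 5.1% of all genes. Slc48a1 was lower in 4 of 4 comparisons, at log2 -0.77 (SE 0.26, limma unadjusted p = 0.0169). Slc29a1 was lower in 4 of 4, at -0.47 (SE 0.18, limma unadjusted p = 0.0269). The other was Slc7a9, which met the signal minimum only through TNBS pools where it reads high, so its p rests on values that let it in and is not given. The term that sets the week 6 difference against the mean of the later ones also called 0 carriers and 0% of genes after adjustment, with 2 carriers and 1.85% of genes at an unadjusted p under 0.05. These were Slc20a1 at -1.60 (SE 0.61, limma unadjusted p = 0.0432, adjusted p = 0.999) and Slc12a4. Slc12a4 met the signal minimum only through the week 6 TNBS pool and the later saline pool. Both enter this term with a positive sign, so its p rests on values that let it in and is not given. The p-values of the first term measure the spread between pools, with TNBS pools of different weeks standing in for replicates. For the term on week 6, residual spread comes only from the 3 later TNBS pools. Its p-values hold no spread of saline pools or of the week 6 TNBS pool. The pooled model recovered 34 of 100 simulated 2-fold genes. Their fold was the same in all 4 TNBS pools, so this does not cover a difference at 1 week.

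Other transport genes were read beside the carriers from a list of pumps, channels, carbonic anhydrases, water channels, ABC transporters and regulators. Of 44 such genes on the array 31 met the signal minimum, and 22, 11, 20 and 22 of them were below saline at weeks 6, 8, 10 and 12, with medians of log2 -0.13, 0.13, -0.13 and -0.15. Of all genes, 52.6%, 56.5%, 50.6% and 49.6% were below saline in order of week. With equal array medians 24, 10, 14 and 19 of the 31 were below saline, and their week 10 median turned to 0.01. Car4, the membrane carbonic anhydrase that works beside bicarbonate carriers, read 2559.6 and 2300.3 in week 6 saline and 1201.1 in TNBS, and was within 0.12 of saline later. The 5 kept sodium, proton and calcium pump genes were all below saline at week 6 (median -0.28), as were both kept water channel genes (Aqp8 at -0.64 and Aqp4 at -0.25). Abca1, a cholesterol exporter, was 2.07-fold higher at week 6, and Hsd11b2, which protects the mineralocorticoid receptor from glucocorticoids, read 572.8 in later saline and 227.9 at week 8, at -1.33. Week 8 was thus also the low point of this gene, as of Slc34a2 and Slc26a2.

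**Figure D4:**
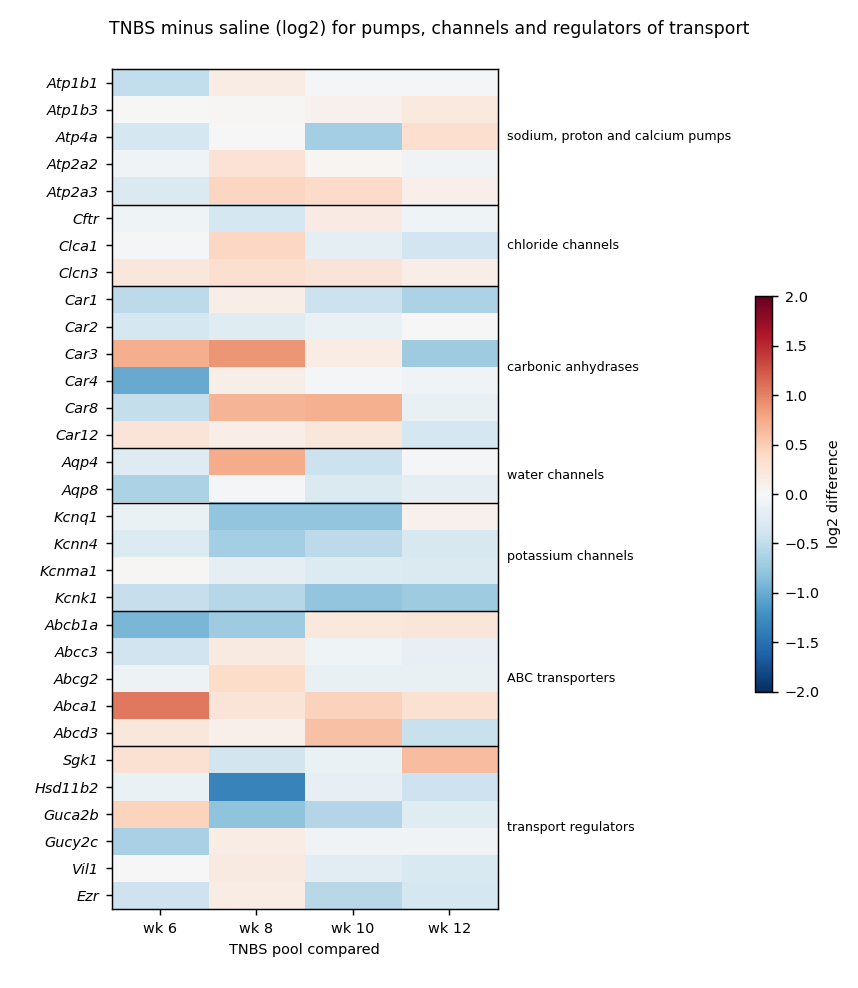
Heat map of the log2 difference between TNBS and matched saline pools (columns, weeks 6, 8, 10 and 12) for the 31 kept partner genes of transport (rows, by group), blue for lower and red for higher with TNBS. All 5 pump genes and both water channel genes are below 0 at week 6, and Car4 is at -1.01.

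Markers of the cells in the tissue moved with the weeks too. The 11 epithelial markers on the array, which define the labelled tissue, summed to 28263 and 26749.8 in week 6 saline and 27186.6 in week 6 TNBS, and the 10 that were kept had a median difference of log2 -0.04. In the later set their sum was 26845.6 in saline and 31966, 23154.8 and 20973.5 in TNBS pools, with 9 of 10 kept markers below saline at weeks 10 and 12. With equal array medians those counts were 6 and 7 of 10. Of 9 pan-leukocyte markers on the array, the 7 kept were all above saline at week 6 (median 0.93), and the 9 summed to 1317 and 1199.2 in saline and 2597 in TNBS. Markers of pancreas, an organ foreign to the sample, had medians of 2.40 at week 6 (7 of 9 above saline) and 2.70 at week 8 (9 of 9). They summed to 6636 and 9780.5, against 2925.4 and 2491.6 in week 6 saline and 2332.4 in later saline. Cela1 alone read 1842.6, 1601.8 and 1235.4 on those saline arrays. Later saline stood above week 6 saline for Prss2, Ctrb1, Cel and Cela2a and below it for Cela1, Pnliprp2 and Clps. At weeks 10 and 12 the pancreas medians were -0.09 and -0.61, with 3 markers at least 2-fold lower at week 12. Squamous epithelium, the lining near the anus, was represented by 4 of 10 markers, while Krt5, Krt13, Krt14, Krt15, Sprr3 and Ivl read under 50 on every array. Of the 4 kept, Sprr1a was 2.51-fold higher at week 8 and the other 3 were below saline there. Among adipose markers, of which 2 were kept, Scd1 was 2.52-fold higher at week 8 and Adipoq at least 2.69-fold lower at week 12. The part of leukocyte, pancreas, muscle, adipose and epithelial RNA in the carrier values was not tested.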

How the data were processed

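Colon RNA was pooled per group and hybridised to Affymetrix arrays. Per the labels, the authors used Affymetrix Microarray Suite 5.0 and a scaling target of 150, and the deposited table holds linear signal intensity per probe set. Detection calls were not used here, and the genome build is not given in the sources used here. Of 12488 probe sets, 66 controls were left out. Gene names came from the platform annotation, and probe sets with 1 symbol were used. The brightest probe set by mean log2 signal stood for a gene, so probe sets of 1 gene were not averaged, and levels were not compared between genes. Signals under 50 were set to 50, and genes with a highest pool of at least 100 were kept. The 2 saline arrays of week 6 were averaged as 1 pool. Where 1 side lay at the floor, the fold is a lower bound.

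Testing used limma 3.58.1 under R 4.3.3 with moderated variances and an intensity trend, two-sided, with Benjamini-Hochberg adjustment over 4316 genes and a threshold of 0.05. There were 3 residual degrees of freedom for the pooled term and 2 for the interaction. On simulated data the pooled model recovered 34 of 100 2-fold genes and 99 of 100 4-fold genes and called 2 unchanged genes. The simulation gave every TNBS pool the same fold, set no difference between control sets, and took its noise from the later TNBS pools. By the naming rule, 28 members are named: Slc20a1, Slc34a2, Slc26a2 and Slc4a4, members at least 2-fold in a comparison, and in each class with 3 or more kept up to 3 with the largest absolute mean difference. Other members, and partner genes other than Car4, Abca1 and Hsd11b2, were chosen after their values were seen. The members and lists were chosen with earlier results of these data known. Alternatives were floors of 25 and 100, no signal filter, the mean of a gene's probe sets, equal array medians, the other saline pool, leaving out a saline array or a later TNBS pool, and models without the intensity trend or the control set. Promoter sequences are from RefSeq, and 5 of the 7 carriers with a 2-fold difference had a window.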

Additional observations from a re-analysis of the deposited data

Results flagged for a closer look

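Slc26a2 differed from the later saline pool by at least 1.5-fold in opposite directions at weeks 8 and 12, by log2 -1.58 and 0.63. The TNBS pools read 78.3 and 362 against 234.6 in the shared saline pool, and the difference between the weeks was not tested. The repeated arrays of week 6 saline differed by 1.64-fold for this probe set.

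Slc6a4 differed by at least 1.5-fold in opposite directions at weeks 6 and 10, by log2 -0.86 (a bound, since the TNBS value was under the floor) and 0.7. The limma term that sets week 6 against the later weeks gave -1.17 (SE 0.84, unadjusted p = 0.213, adjusted p = 0.999). The gene met the signal minimum only through later TNBS pools, so that term rests on values that let it in. On a second probe set of Slc6a4 the differences were -0.25 and -0.74, both below saline.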

How the results depend on the processing

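With a floor of 100 the carriers at least 2-fold different numbered 1 at week 6 (2 as reported), 2 at week 8 (4 as reported, of which Slc26a2 and Slc30a4 remained) and 0 at week 12 (1 as reported). Leaving out either week 6 saline array gave 1 to 2 at week 6. The mean of a gene's probe sets gave 2 at week 8 (Slc26a2 and Slc34a2), with Slc2a8 at log2 -0.53 and Slc30a4 at 0.61. Equal array medians gave 1 at week 10 (Slc7a9, higher, where 0 are reported), and the other saline pool gave 2 at week 12 (Slc2a8 and Slc46a1). The interaction term called 2 carriers with a floor of 100 (Slc12a4 and Slc38a5) and 15 of 145 with no signal filter, where 0 are reported. The shares of all genes called were 4.38% and 5.93%. In both of the former and in 14 of the latter the 3 later TNBS pools shared 1 value at the floor, which left no residual spread between them. With a floor of 100, Slc48a1 was -0.44 at week 6, Slc2a8 -0.37 and Slc34a2 -0.96 at week 8, and Slc46a1 0.11 at week 12. The pooled model called 0 carriers under every alternative run, with a lowest adjusted p of 0.463 to 0.950 and 1 to 6 of the kept carriers, or 8 of 145 with no signal filter, at an unadjusted p under 0.05, against 4.05% to 6.79% of all genes. None of the 7 carriers' 2-fold differences changed direction under the alternatives run on them. Partner and marker genes were recomputed only with equal array medians. No paired analysis was possible because each group was 1 RNA pool and the groups share fewer than 2 replicate numbers. The number of arrays limits precision, and signals near 50 carry little information.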
